A study of Mus musculus with 10 samples.

Results

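Mast cell and basophil genes were examined in RNA of cells from mouse melanomas treated with a CSF1R inhibitor, a CD40 agonistic antibody or both. The 10 genes were Cpa3, Tpsb2, Tpsab1, Cma1, Mcpt4, Fcer1a, Ms4a2, Mcpt8, Kit and Gata2. They were chosen by symbol from the 48825 rows of the deposited table, and all 10 were found. The choice used measured values of these libraries: the higher level of these genes in the CD40 group than in the Control group had been seen before. That difference is therefore given as a description and carries no test.

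Mast cells are tissue-resident cells that store proteases, histamine and proteoglycans in granules, and basophils are their rare relatives in blood. Both carry the high-affinity IgE receptor, and its crosslinking by antigen releases the granules. Mast cells depend on the receptor tyrosine kinase KIT and its ligand, stem cell factor, and they are common in skin and around tumors of the skin. The transcription factor GATA2 is needed for the development of both cell types.

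The study had 10 bulk RNA-seq libraries of tumor-infiltrating T cells, as the titles name them, in 4 groups. All mice carried the alleles BrafCA and Tyr::CreER, in which a tamoxifen-dependent Cre driven by the tyrosinase promoter activates mutant Braf in melanocytes. Tumors were induced locally, treatment began after 30 days at a volume under 100 mm3, and it ran for up to 30 days or until tumors reached 2 cm3. The Control group (3 libraries) had normal chow. The CSF1Ri group (2 libraries) had chow with 600 mg/kg PLX6134, an inhibitor of the macrophage growth factor receptor CSF1R. The CD40 group (3 libraries) had normal chow and FGK4.5, an agonistic antibody to CD40, at 10 mg/kg every 3 days for up to 10 doses. The CSF1Ri+CD40 group (2 libraries) had both. The labels describe PBS as the vehicle without saying for each library whether it was given.

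Each library pooled at least 3 tumors, so a value is a mean over several animals or tumors and their spread is not seen. Ages are not given for the groups. The labels carry a genotype of wild type beside the strain, and name the tissue as tumor associated macrophages, which goes against the titles. T cell markers were abundant in every library: 15 genes such as Cd3e, Cd3g and Trac summed to 117033 to 192818 normalized counts, while 10 macrophage markers summed to 389 to 3204. Libraries are named here by group and number, as in CD40 1. Library totals ran from 11538244 to 14024851 normalized counts. Y-linked transcripts summed to 2438 in Control 1, 1569 in CD40 2 and 3072 in CD40 3 and to 0 or 1 in the other libraries.

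The members fell into 4 roles. Cpa3 encodes carboxypeptidase A3 and lies at chr3:20215620-20242181 of GRCm38. Tpsb2 and Tpsab1 encode the mast cell tryptases and are neighbors at chr17:25366305-25369098 and chr17:25343245-25345562. Cma1, Mcpt4 and Mcpt8 encode chymase-family proteases and share one locus, at chr14:55941451-55944675, chr14:56059629-56062313 and chr14:56082166-56085273. Cma1 and Mcpt4 are made by connective tissue mast cells, whereas Mcpt8 is a basophil protease. Fcer1a, at chr1:173221284-173227214, encodes the IgE-binding alpha chain of the IgE receptor. Ms4a2, at chr19:11615523-11623719, encodes its signal-amplifying beta chain. Kit lies at chr5:75574916-75656722 and Gata2 at chr6:88193891-88207032.

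Promoters with a GATA motif are shown because GATA2, a factor that binds it, is itself among the genes. The RefSeq sequences of GRCm38.p6 run from 250 bases before the start of transcription to 50 after it, a length of 300. They covered 8 of the 10 genes. The motif GATAA, the core recognized by GATA factors, was searched on both strands and stood in 5 of the 8, which are printed 5′ to 3′ along the gene with each match in capitals (TTATC marks a match on the opposite strand).
Cpa3, chr3:20242132-20242431, minus strand: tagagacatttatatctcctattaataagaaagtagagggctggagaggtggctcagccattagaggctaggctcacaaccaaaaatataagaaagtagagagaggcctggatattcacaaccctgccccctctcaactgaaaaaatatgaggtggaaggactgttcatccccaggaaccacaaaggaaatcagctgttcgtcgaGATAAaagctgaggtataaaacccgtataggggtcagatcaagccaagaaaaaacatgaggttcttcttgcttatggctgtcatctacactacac
Fcer1a, chr1:173227180-173227479, minus strand: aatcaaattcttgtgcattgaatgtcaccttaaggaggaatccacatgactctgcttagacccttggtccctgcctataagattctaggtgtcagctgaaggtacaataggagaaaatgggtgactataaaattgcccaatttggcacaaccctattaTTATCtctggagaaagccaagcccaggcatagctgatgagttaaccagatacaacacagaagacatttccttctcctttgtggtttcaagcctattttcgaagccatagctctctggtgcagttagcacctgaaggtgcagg
Ms4a2, chr19:11623670-11623969, minus strand: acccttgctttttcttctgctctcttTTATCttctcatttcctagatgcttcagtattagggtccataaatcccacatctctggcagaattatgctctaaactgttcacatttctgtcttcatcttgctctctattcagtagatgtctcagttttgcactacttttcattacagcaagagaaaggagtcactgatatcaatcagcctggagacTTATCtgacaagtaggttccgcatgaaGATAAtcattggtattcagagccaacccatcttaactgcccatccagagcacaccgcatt
Mcpt4, chr14:56062261-56062560, minus strand: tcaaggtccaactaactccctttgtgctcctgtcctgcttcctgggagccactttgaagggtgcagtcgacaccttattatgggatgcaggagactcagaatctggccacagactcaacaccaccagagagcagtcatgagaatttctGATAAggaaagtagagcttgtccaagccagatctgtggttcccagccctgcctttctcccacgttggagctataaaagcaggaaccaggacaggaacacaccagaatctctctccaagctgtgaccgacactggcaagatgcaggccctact
Cma1, chr14:55944626-55944925, minus strand: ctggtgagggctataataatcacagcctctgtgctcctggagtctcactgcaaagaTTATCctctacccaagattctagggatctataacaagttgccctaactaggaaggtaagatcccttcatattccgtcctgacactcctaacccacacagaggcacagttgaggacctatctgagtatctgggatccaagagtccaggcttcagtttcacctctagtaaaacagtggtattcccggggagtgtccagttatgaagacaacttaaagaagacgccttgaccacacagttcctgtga
The match began 45 bases before the start in Cpa3, 92 in Fcer1a, 102 in Mcpt4 and 194 in Cma1. Ms4a2 held 3 matches, at 224, 37 and 10 bases before the start. No GATAA was in this window of Mcpt8, or in the windows of both listed starts of Kit and of Gata2. Of all 32544 promoters of the same length in that table, 25.3% held at least 1 match, 5.17% at least 2 and 0.903% at least 3. A match is a run of letters and not evidence of binding. CANNTG, the E-box motif bound by factors such as MITF, was in 6 of the 8 genes and in 72.3% of all promoters. A CANNTG can share its last base with a GATAA.

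Cpa3 transcripts were found in every library. Its normalized counts were 54, 56 and 339 in Control 1, 2 and 3, 408 and 185 in CSF1Ri 1 and 6, 4168, 422 and 657 in CD40 1, 2 and 3, and 2840 and 356 in CSF1Ri+CD40 1 and 3. The libraries CD40 1 and CSF1Ri+CD40 1 stood far above the rest, and the other libraries with the antibody were near CSF1Ri 1 and Control 3. Group means were 150 ± 164 in Control (SD, n = 3), 297 ± 158 in CSF1Ri (SD, n = 2), 1749 ± 2100 in CD40 (SD, n = 3) and 1598 ± 1760 in CSF1Ri+CD40 (SD, n = 2).

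The tryptases are the main soluble proteases of mast cell granules, and their levels differed widely between libraries. Tpsb2 had 143, 126 and 476 normalized counts in Control 1, 2 and 3, 706 and 338 in CSF1Ri 1 and 6, 6696, 649 and 1406 in CD40 1, 2 and 3, and 3007 and 482 in CSF1Ri+CD40 1 and 3. Tpsab1 had 24, 462 and 1138 in the Control libraries, 1626 and 597 in the CSF1Ri libraries, 11746, 945 and 677 in the CD40 libraries, and 3751 and 770 in the CSF1Ri+CD40 libraries. Tpsb2 ranked its libraries almost as Cpa3 did, and every CD40 library lay above every Control library. Tpsab1 did not separate those groups: Control 3 was above CD40 2 and CD40 3. Its value of 24 in Control 1 made up 3.01% of the sum over the 10 genes there, against 14.9% to 45.3% in the other 9 libraries. The ratio of Tpsab1 to Tpsb2 was 0.168 in Control 1 and 3.67 in Control 2, the extremes of the series. The 2 tryptase genes shared none of their 75-base runs with each other or with any other gene (1661 runs of Tpsb2 and 2237 of Tpsab1, in GENCODE vM21 transcripts), so a read of that length without mismatches names one of them.

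The chymases followed the carboxypeptidase. Cma1 had 193, 285 and 589 normalized counts in the Control libraries, 370 and 114 in the CSF1Ri libraries, 5312, 856 and 1000 in the CD40 libraries, and 3118 and 470 in the CSF1Ri+CD40 libraries. Mcpt4 had 46, 20 and 127 in Control, 119 and 37 in CSF1Ri, 1196, 190 and 172 in CD40, and 350 and 212 in CSF1Ri+CD40. For both genes each CD40 library was above each Control library, and each CSF1Ri+CD40 library was above each CSF1Ri library. The ratio of Cma1 to Cpa3 ran from 0.616 in CSF1Ri 6 to 5.09 in Control 2. Mcpt4 shared 26 of its 1034 runs (2.51%) with other genes, and Cma1 17 of 1016 (1.67%).

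The receptor chains did not behave alike. Fcer1a had 84, 8 and 90 normalized counts in Control 1, 2 and 3, 122 and 29 in CSF1Ri 1 and 6, 469, 250 and 262 in CD40 1, 2 and 3, and 302 and 183 in CSF1Ri+CD40 1 and 3. All 5 libraries with the antibody were above all 5 without it. No share of all genes is given for that split, and it includes the CD40 and Control libraries whose difference had served in the choice. Ms4a2 had 37, 28 and 25 in Control, 2 and 0 in CSF1Ri, 144, 11 and 38 in CD40, and 210 and 95 in CSF1Ri+CD40. The Control libraries of Ms4a2 were close together (30.0 ± 6.24, SD, n = 3), the CSF1Ri libraries were at or near 0, and the CSF1Ri+CD40 libraries were above both. Ms4a2 shared 38 of its 3103 runs (1.22%) with Ms4a4b, a T cell gene of the same family that had 540 to 750 normalized counts in every library. Ms4a4b was at 636 and 679 in the CSF1Ri libraries, where Ms4a2 was at 2 and 0.

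The basophil protease Mcpt8 had 89, 0 and 121 normalized counts in Control 1, 2 and 3, 378 and 0 in CSF1Ri 1 and 6, 151, 165 and 140 in CD40 1, 2 and 3, and 231 and 75 in CSF1Ri+CD40 1 and 3. Its CD40 libraries were within a narrow range (152 ± 12.5, SD, n = 3), and CD40 1, which was highest for 7 of the 10 genes, was not high for Mcpt8. The highest Mcpt8 value was in CSF1Ri 1, and the CSF1Ri libraries spanned the whole range of the series. Kit had 95, 36 and 104 in Control, 128 and 17 in CSF1Ri, 213, 61 and 72 in CD40, and 208 and 98 in CSF1Ri+CD40. Kit overlapped between all pairs of groups, and its ratio of highest to lowest library was 12.5, against 46.6 to 489 for the 5 mast cell proteases. Gata2 had 33, 0 and 26 in Control, 0 in both CSF1Ri libraries, 2, 99 and 120 in CD40, and 44 and 0 in CSF1Ri+CD40. CD40 1, with the most protease RNA, had only 2 Gata2 counts, and CD40 3 had the most. In bulk samples a lower share of a cell type and less RNA per cell cannot be told apart.

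**Figure D1:**
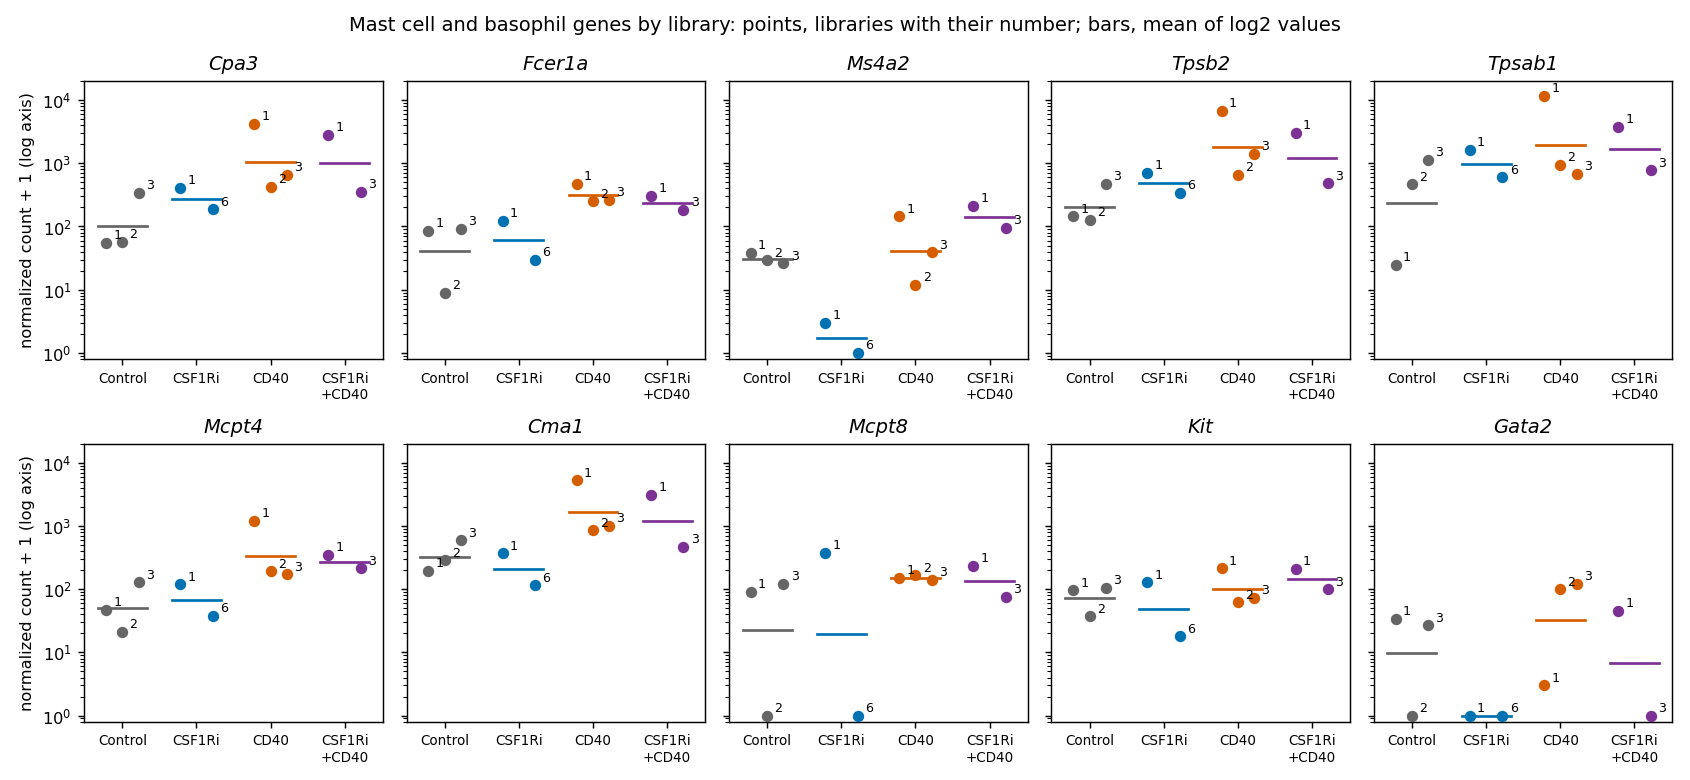
Normalized count plus 1 (log axis) of each of the 10 genes by group; points are libraries with their number and bars are group means of the log2 values. CD40 1 and CSF1Ri+CD40 1 sit above the rest for Cpa3, Tpsb2, Tpsab1 and Cma1, while Ms4a2 is at 2 and 0 in the CSF1Ri libraries.

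Added together, the 10 genes had 798, 1021 and 3035 normalized counts in Control 1, 2 and 3, 3859 and 1317 in CSF1Ri 1 and 6, 30097, 3648 and 4544 in CD40 1, 2 and 3, and 14061 and 2741 in CSF1Ri+CD40 1 and 3. The sum was 0.00668% to 0.234% of a library's total. The libraries CD40 1 and CSF1Ri+CD40 1 held the highest sums, and the other 3 libraries with the antibody lay within the range of CSF1Ri 1 and Control 3 or close to it. Without those libraries at the top, the sums of the other 8 ran from 798 to 4544. The tryptases, Cma1 and Cpa3 made up most of the sum in every library.

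**Figure D2:**
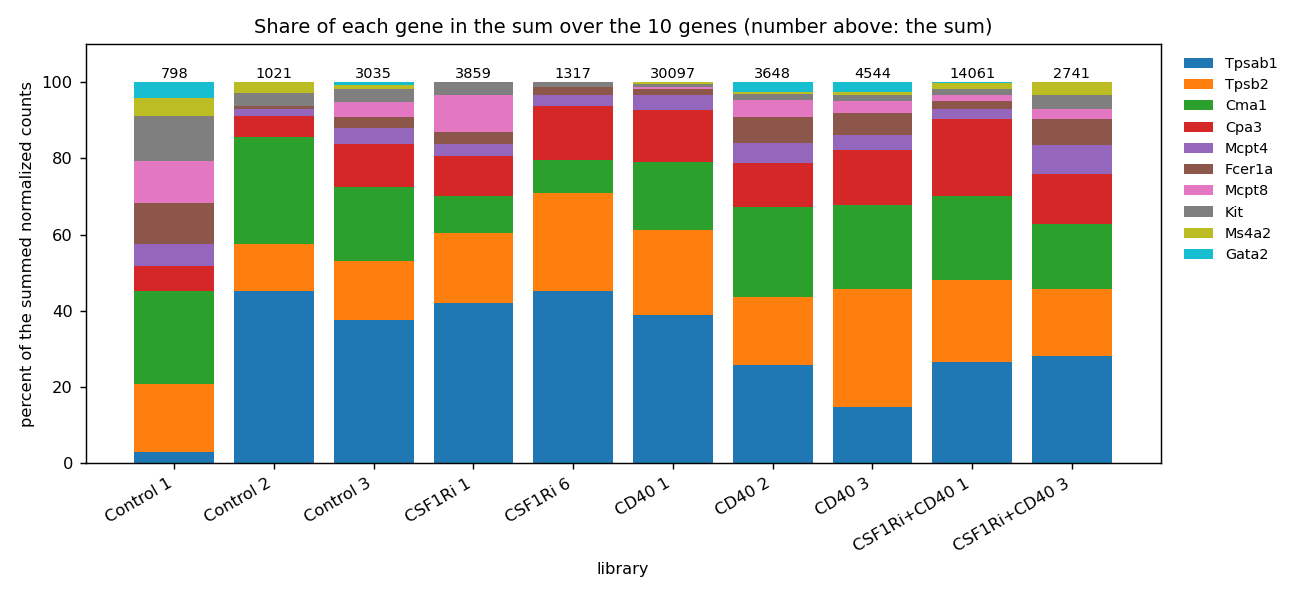
Share of each of the 10 genes in their summed normalized counts (percent), by library, with the sum above each bar. Tpsab1 is 3.01% in Control 1 and 14.9% to 45.3% elsewhere, while the sums run from 798 to 30097.

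Levels of different genes were compared per kilobase of exon (normalized counts divided by the length of the merged GENCODE vM21 exons). In Control the order was Cma1 at 326 ± 190 per kilobase, Tpsab1 at 259 ± 268, Tpsb2 at 156 ± 124 and Cpa3 at 98.7 ± 108 (SD, n = 3). Mcpt8, Fcer1a and Mcpt4 followed at 70.1 to 58.1, and Ms4a2 (10.7), Kit (8.79) and Gata2 (3.64) came last. Of the 9 neighbors in that order, 1 pair had ranges that did not overlap, Mcpt4 above Ms4a2. In CD40 the first 4 were again Cma1 at 2190 ± 2320, Tpsab1 at 2130 ± 3020, Tpsb2 at 1830 ± 2070 and Cpa3 at 1150 ± 1380 per kilobase (SD, n = 3). The ranges of Fcer1a (328) and Mcpt8 (152) and of Mcpt8 and Ms4a2 (22.9) were apart there, and no other neighbors were. In CSF1Ri the order began with Tpsab1 (531) and Tpsb2 (327), and ended with Ms4a2 at 0.355 and Gata2 at 0. In CSF1Ri+CD40 it began with Cma1 (1650), and Tpsb2 (1090), Tpsab1 (1080) and Cpa3 (1050) were level. Cma1, the tryptases and Cpa3 thus held the first 4 places in each of the 4 groups. The ranges of neighbors among them overlapped. By its mean, Fcer1a stood above the protease Mcpt4 in Control and CSF1Ri, and above Mcpt8 in CD40 and CSF1Ri+CD40. Of these, only the ranges of Fcer1a and Mcpt8 in CD40 were apart, and the others overlapped.

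The antibody alone was compared with the controls as a description, since this comparison had served to choose the genes. Fitted log2 fold changes on log2(normalized count + 1) were 3.36 ± 0.99 for Cpa3, 3.15 ± 0.87 for Tpsb2 and 3.05 ± 1.34 for Tpsab1 (limma estimate ± standard error). The chymases were at 2.37 ± 0.82 for Cma1 and 2.76 ± 0.86 for Mcpt4. The receptor chain Fcer1a was at 2.93 ± 0.87, whereas Ms4a2 was at 0.41 ± 1.02. Mcpt8 was at 2.78 ± 2.07, Kit at 0.46 ± 0.83 and Gata2 at 1.77 ± 1.94. The median over the 10 genes was 2.77, beside -0.01 over the 15716 genes tested. For 6 of the 10 every CD40 library was above every Control library, where 4.19% of all genes tested were, and nothing is read from that count since the choice used these values. Without CD40 1 the fitted values were 2.37 for Cpa3, -0.50 for Ms4a2 and -0.10 for Kit. Without Control 2 they were 0.54 for Mcpt8 and 0.13 for Gata2, and without Control 1 the value of Tpsab1 was 1.43.

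With the inhibitor alone, 9 of the 10 genes overlapped the controls and Ms4a2 was the one with groups apart. The controls had served in the choice of the genes, so this comparison is not independent of that choice. CSF1Ri 1 was above every Control library for Cpa3, Fcer1a, Tpsb2, Tpsab1, Mcpt8 and Kit. CSF1Ri 6 was below every one for Cma1 and Kit, besides Ms4a2. The log2 fold changes of CSF1Ri over Control were 1.43 ± 1.11 for Cpa3, 1.25 ± 0.97 for Tpsb2, 2.06 ± 1.50 for Tpsab1 and -0.63 ± 0.92 for Cma1, and none had an adjusted p under 0.05 (limma with Benjamini-Hochberg adjustment over all genes, by which a gene is named here as called). Ms4a2 was at -4.14 ± 1.15, lower in 2 of 2 libraries than in each of 3 controls. Its unadjusted p was 0.0038 and its adjusted p was 1 (limma), so it was not called. In all, 5 genes were higher and 5 lower, with a median of 0.12 beside 0.02 over all genes. None of the 10 was called and 1 had an unadjusted p under 0.05, where 0.00636% of all genes were called. For 1 of the 10 both CSF1Ri libraries were below every Control library, where 10.3% of all genes were. For 0 of the 10 both were above, where 11.6% of all genes were. Gata2 was at 0 in both CSF1Ri libraries. Against a floor of 3 counts per library it was at least 6.56-fold higher in the Control mean, a mean that includes a library at 0.

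Both treatments together were compared with the controls, which are the same 3 libraries as in the comparisons above. These controls had served in the choice of the genes, so the fold changes, p-values and counts here are not independent of it. The log2 fold changes of CSF1Ri+CD40 over Control were 3.30 ± 1.11 for Cpa3, 2.55 ± 0.97 for Tpsb2, 2.45 ± 0.96 for Mcpt4 and 1.92 ± 0.92 for Cma1. The receptor chains were at 2.52 ± 0.97 for Fcer1a and 2.22 ± 1.15 for Ms4a2, and Kit was at 1.00 ± 0.93. In all, 9 of the 10 genes were higher and Gata2 was lower, with a median of 2.48 beside 0.00 over all genes. None was called (smallest adjusted p 0.823, limma), 4 had an unadjusted p under 0.05, and 0% of all genes were called. For 5 of the 10, Cpa3, Fcer1a, Ms4a2, Tpsb2 and Mcpt4, both libraries were above every control, where 10.6% of all genes were. That count was 8 without Control 3, where 17.0% of all genes were above, and 10 without CSF1Ri+CD40 3, where 24.5% were. It stayed at 5 without CSF1Ri+CD40 1, where 26.0% of all genes were above. The sizes for Cpa3, Tpsb2 and Cma1 moved with single libraries. They were 1.81, 1.23 and 0.56 without CSF1Ri+CD40 1, and 4.80, 3.87 and 3.29 without CSF1Ri+CD40 3.

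The antibody in mice on the inhibitor gave the comparison whose groups held no library of the CD40 over Control difference, although the spread in the fit was estimated over all 10. The genes were chosen with earlier results of these data known, so its independence of the choice is not established. All 10 genes were higher in CSF1Ri+CD40 than in CSF1Ri in the fit, and 0 of them were called. The largest difference among the 10 was in Ms4a2, at 6.36 ± 1.26 on the log2 scale, with 210 and 95 normalized counts against 2 and 0. Its unadjusted p was 0.000316 and its adjusted p was 0.898 (limma). Cma1 was at 2.55 ± 1.00, with 3118 and 470 against 370 and 114. Mcpt4 was at 2.02 ± 1.05 and Fcer1a at 1.96 ± 1.07, and these 4 genes were the ones whose groups did not overlap. The share was 4 of 10, where 16.5% of all genes had both CSF1Ri+CD40 libraries above both CSF1Ri libraries.

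The remaining 6 genes overlapped between those groups. Cpa3 was at 1.87 ± 1.21, Tpsb2 at 1.30 ± 1.06, Tpsab1 at 0.79 ± 1.65, Mcpt8 at 2.77 ± 2.53, Kit at 1.58 ± 1.02 and Gata2 at 2.75 ± 2.38. Gata2 was at 0 in both CSF1Ri libraries, and against a floor of 3 counts per library its CSF1Ri+CD40 mean was at least 7.33-fold higher, a mean that came from 1 library. The median over the 10 genes was 1.99 (1.91 with Gata2 at its bound), beside 0.00 over all genes. An unadjusted p under 0.05 was found for 2 of the 10, Ms4a2 and Cma1, and 0% of all genes were called. The median was 1.06 without CSF1Ri 6, and Tpsb2 and Tpsab1 were at -0.02 and -0.36 without CSF1Ri+CD40 1. The count of genes with groups apart was 9 without CSF1Ri 1, where 29.2% of all genes were above, and 9 without CSF1Ri+CD40 3, where 34.3% were. It stayed at 4 without CSF1Ri 6, where 26.6% of all genes were above, and without CSF1Ri+CD40 1, where 37.5% were. In the last case 4 of 10 was near the share of all genes. Mcpt8 was at -1.51 without CSF1Ri 6, and Gata2 at 0.00 without CSF1Ri+CD40 1.

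Adding the inhibitor to the antibody gave no separation of any of the 10 genes. The CD40 libraries had served in the choice of the genes, so this comparison is not independent of that choice either. In CSF1Ri+CD40 over CD40, 2 genes were higher and 8 lower, with a median of -0.26 beside 0.01 over all genes. Both libraries were above every CD40 library for 0 of the 10 (8.19% of all genes) and below for 0 (6.84%). Cpa3 was at -0.06 ± 1.11 and Ms4a2 at 1.80 ± 1.15. None of the 10 was called (0% of all genes, limma), and 0 had an unadjusted p under 0.05. Cpa3 was at -1.56 without CSF1Ri+CD40 1 and at 1.43 without CSF1Ri+CD40 3, so its direction rested on which of those was kept. The median over the 10 genes likewise was -1.18 without CSF1Ri+CD40 1 and 0.81 without CSF1Ri+CD40 3. The difference between the antibody's effect with and without the inhibitor, which includes the comparison used for the choice, was not called for any of the 10 (0% of all genes). Among the 10 genes it was largest in Ms4a2, at 5.95 ± 1.62 with an unadjusted p of 0.0034 and an adjusted p of 0.991 (limma).

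**Figure D3:**
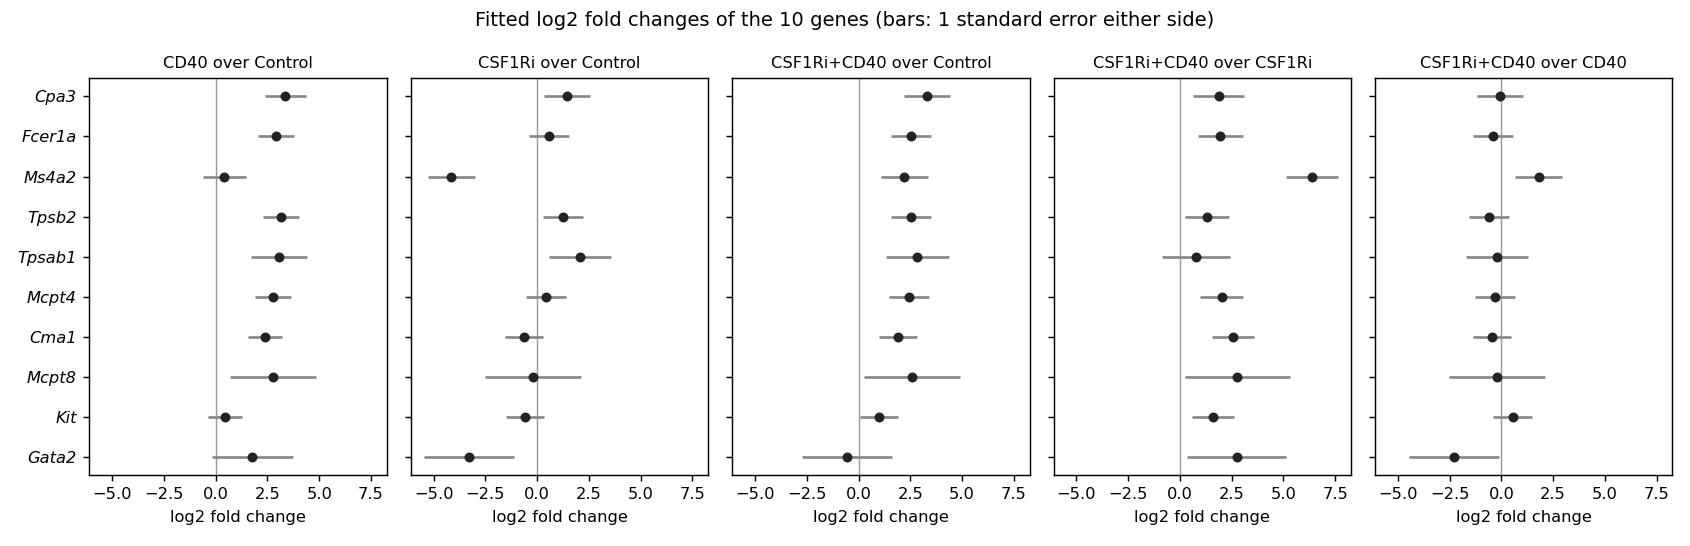
Fitted log2 fold changes of the 10 genes in 5 comparisons; points are limma estimates and bars reach 1 standard error to either side. Ms4a2 is at -4.14 in CSF1Ri over Control and at 6.36 in CSF1Ri+CD40 over CSF1Ri, and in the latter all 10 points are above 0.

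Libraries that held more of these transcripts tended to hold more of most of them. The r and p-values over the 10 libraries, here and in the next paragraph, also hold the group difference that had served to choose the genes. Over the 10 libraries, Cpa3 and Tpsb2 had a Pearson r of 0.99 (permutation p 1e-05, the smallest the resamples can give, adjusted 0.00045 over 45 pairs) and a Spearman rho of 0.98 (permutation p 1e-05), on log2(normalized count + 1). For Cpa3 and Mcpt4 r was 0.93 (permutation p 0.00016, adjusted 0.0024) and rho was 0.85 (permutation p 0.0031). Cpa3 and Cma1 gave an r of 0.90 (permutation p 0.00095, adjusted 0.0053) and a rho of 0.92 (permutation p 0.00058). Without CD40 1 and CSF1Ri+CD40 1, the libraries farthest from the median of Cpa3, r was 0.98 with Tpsb2, 0.87 with Mcpt4 and 0.70 with Cma1. Whether the transcripts of these proteases came from the same cells was not tested.

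Tpsab1 and Fcer1a also moved with Cpa3. The r of Tpsab1 was 0.86 (permutation p 0.00065, adjusted 0.0042) with a rho of 0.82 (permutation p 0.0059), and it was 0.73 without those libraries. The r of Fcer1a was 0.80 (permutation p 0.0058, adjusted 0.022) with a rho of 0.95 (permutation p 0.00017), and it was 0.76 without them. The other genes were looser. For Kit r was 0.66 (permutation p 0.037, adjusted 0.072; rho 0.60, permutation p 0.073) and 0.32 without those libraries. For Mcpt8 it was 0.56 (permutation p 0.059, adjusted 0.10; rho 0.72, permutation p 0.024) and 0.58 without them. For Ms4a2 it was 0.45 (permutation p 0.19, adjusted 0.25; rho 0.50, permutation p 0.15) and -0.07 without them. For Gata2 it was 0.20 (permutation p 0.56, adjusted 0.58; rho 0.42, permutation p 0.23) and 0.28 without them.

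**Figure D4:**
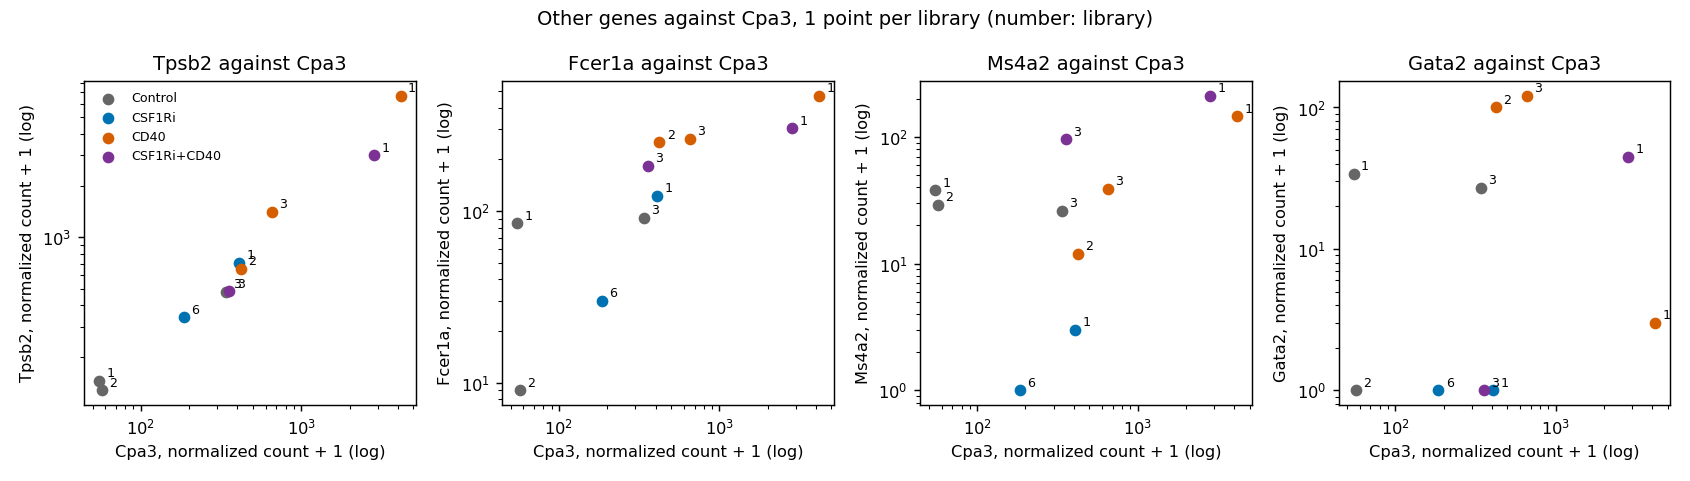
Normalized count plus 1 of Tpsb2, Fcer1a, Ms4a2 and Gata2 against that of Cpa3 (log axes), 1 point per library, colored by group and numbered. Tpsb2 follows Cpa3 over the whole range (r 0.99), while Gata2 (r 0.20) does not.

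Of the 45 pairs, 44 had an r above 0, with a median of 0.66 and a range of -0.14 to 0.99. An adjusted permutation p under 0.05 was reached by 21 pairs, and an unadjusted one by 24. No share over pairs of other genes is given here, so these counts are not set against a background. The pooled r also holds the difference between groups that had served to choose the genes, so part of it was fixed by the choice. The count of pairs was 13 without Control 2, 13 without CSF1Ri 6, 12 without CD40 1 and 12 without CSF1Ri+CD40 1. It was 2 without both CD40 1 and CSF1Ri+CD40 1 (8 libraries, median r 0.53). With only the 7 libraries lacking Y-linked transcripts it was 17 pairs, with a median r of 0.79.

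The departures of the libraries from their group means do not hold the differences between groups. For these, 41 of the 45 pairs had an r above 0, with a median of 0.64 and a range of -0.33 to 0.99. None reached an adjusted p under 0.05 and 17 reached an unadjusted one, in an exact permutation test within groups. For these counts, too, no share over pairs of other genes is given. The 144 arrangements allowed no p below 0.0069, and the smallest adjusted p was 0.078. The 10 pairs among Cpa3, Tpsb2, Tpsab1, Cma1 and Mcpt4 had an r of 0.64 to 0.99 within groups and of 0.74 to 0.99 over all libraries. Within groups Cpa3 had an r of 0.99 with Tpsb2, 0.96 with Cma1, 0.87 with Mcpt4, 0.81 with Tpsab1, 0.72 with Kit, 0.69 with Ms4a2, 0.55 with Fcer1a, 0.41 with Mcpt8 and 0.06 with Gata2. Kit and Ms4a2 thus ranked above Fcer1a here and below it over all libraries. The receptor chains were correlated at 0.48 over all libraries and 0.42 within groups. Mcpt8 was closest to Fcer1a, with an r of 0.86 (permutation p 0.0073, adjusted 0.025; rho 0.69, permutation p 0.032). That relation rested on Control 2 and CSF1Ri 6, without which r was 0.19.

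**Figure D5:**
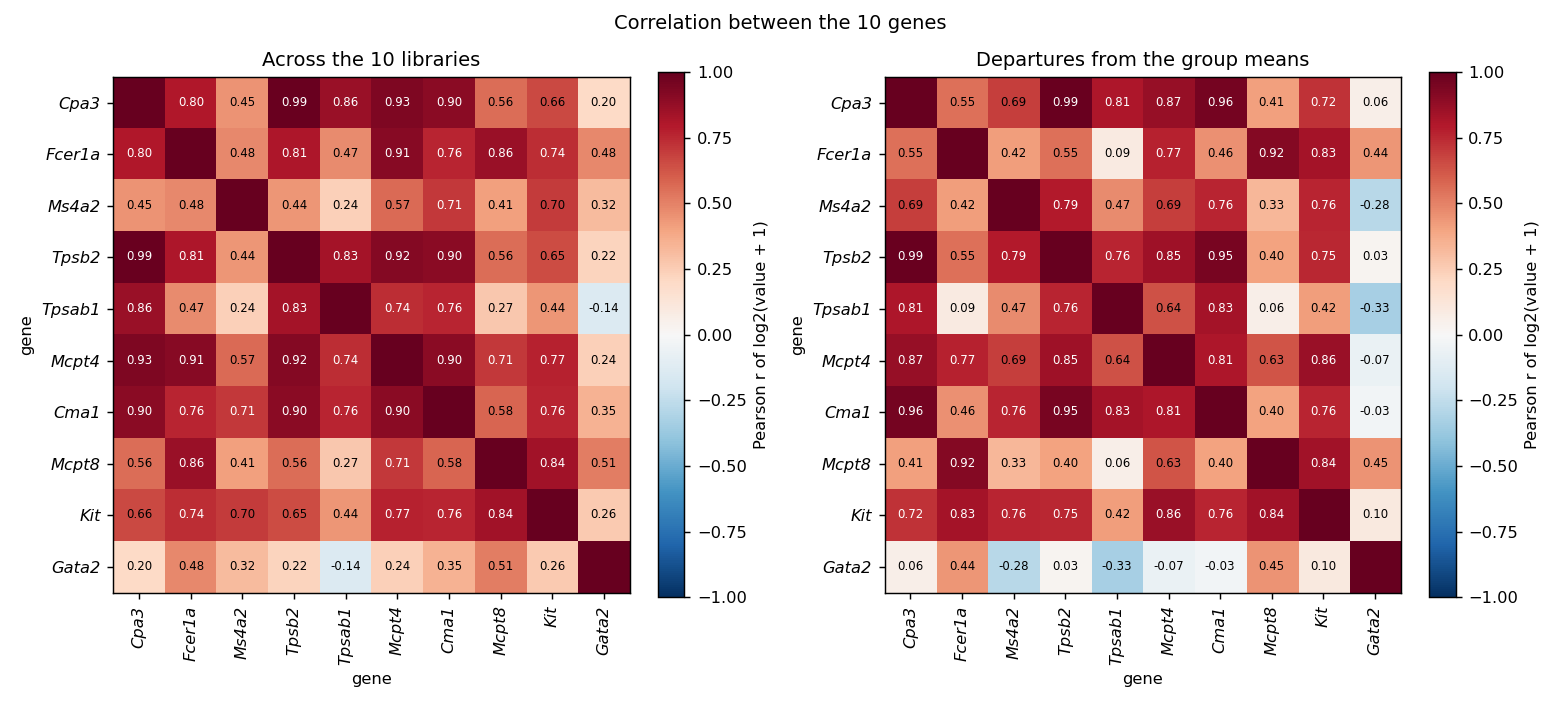
Pearson r of log2(normalized count + 1) between the 10 genes, over the 10 libraries (left) and for departures from the group means (right). The block of Cpa3, Tpsb2, Tpsab1, Cma1 and Mcpt4 is at 0.64 or above in both, and Gata2 is near or below 0 with several of them.

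Each gene was also set against the mean log2 profile of the other 9. The r was 0.93 for Mcpt4, 0.92 for Cma1, 0.90 for Fcer1a, 0.87 for Cpa3, 0.86 for Tpsb2, 0.82 for Kit and 0.72 for Mcpt8. It was lower for Ms4a2 (0.56), Tpsab1 (0.54) and Gata2 (0.33). Among 12404 other genes with a mean of at least 20 normalized counts, 28 had an r over 0.8 with the mean profile of all 10 genes and 1 an r over 0.9. The 12 most alike over the 10 libraries were Ranbp3 (0.93), Ecm1 (0.89), Itgb8 (0.88), Adora2a, Il21r and Lxn (0.87 each), and Gmds, Ms4a4d, Supt6, Rnf166, Ccl2 and Diaph3 (0.86 each). Ccl2, a monocyte-attracting chemokine, had 501 normalized counts in CD40 1, 208 in CSF1Ri+CD40 1 and 0 to 77 in the other libraries. Ecm1, an extracellular matrix protein that is also made by type 2 helper T cells, had 145 to 475 in the libraries without the antibody and 504 to 749 in those with it. These are descriptions of the best of many genes and carry no p.

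Other genes of mast cells and basophils did not follow the 10 as a group. Of 23 further mast cell genes, 20 were tested, 7 were higher and 11 lower in CSF1Ri+CD40 over CSF1Ri, and the median log2 fold change was -0.34. In CD40 over Control 13 were higher and 7 lower, with a median of 0.22. The most abundant of them are made by many blood cells: Srgn, the granule proteoglycan serglycin, had 15027 to 23893 normalized counts, and Serpinb1a, Cd63 and Il1rl1 had 1537 to 4048, 138 to 1780 and 206 to 912. Mcpt9 was at 0 in every library. Of 15 further basophil genes, 8 were higher and 7 lower in CSF1Ri+CD40 over CSF1Ri (median 0.07), and 9 higher and 6 lower in CD40 over Control (median 0.52). Il13, a type 2 cytokine, had 49, 125 and 122 in Control 1, 2 and 3 and 282, 535 and 155 in CD40 1, 2 and 3. T cells make Il13 too. None of these genes was called in any comparison (limma).

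The signaling genes downstream of the IgE receptor are shared with the T cell receptor. Of 16, 5 were higher and 11 lower in CSF1Ri+CD40 over CSF1Ri (median -0.09), and Lat, Lcp2, Fyn and Vav1 were the most abundant, with Lat at 7070 to 13932 normalized counts. Of 7 tested genes of lipid mediator synthesis, 1 was higher and 6 lower (median -2.28). Hpgds, the prostaglandin D synthase of mast cells, was at 51 and 5 in CSF1Ri+CD40 1 and 3 and at 103 and 70 in CSF1Ri 1 and 6, with a log2 fold change of -2.28 ± 1.08 and an adjusted p of 1 (limma). Of 11 genes of KIT signaling, 6 were higher and 5 lower (median 0.18). Of 9 tested cytokine genes acting on these cells 3 were higher and 4 lower (median 0.00), and Il3, a growth factor of both cell types, was at 0 in every library.

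Of 8 tested transcription factors of mast cells and their progenitors, 4 were higher and 4 lower in CSF1Ri+CD40 over CSF1Ri (median 0.17). Gata1, which acts beside GATA2 in mast cells and in red cell precursors, had 0, 1 and 1 normalized counts in Control 1, 2 and 3, 19 and 0 in CSF1Ri 1 and 6, 27, 12 and 93 in CD40 1, 2 and 3, and 94 and 78 in CSF1Ri+CD40 1 and 3. Every library with the antibody was above every Control library, and CSF1Ri 1 was above CD40 2. No share of all genes is given for that separation. Its log2 fold change was 4.28 ± 1.58 in CSF1Ri+CD40 over CSF1Ri (adjusted p 1, limma) and 5.77 ± 1.44 over Control (adjusted p 0.634). Mitf, a factor that mast cells share with melanocytes, had 0 to 81. None of these lists held a called gene in any comparison.

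Markers of other cells that could reach the sample did not all move with the 10 genes. Macrophage markers (10 of 10 in the table) summed to 3204 in CD40 1, the highest of the series, but to 707 in CSF1Ri+CD40 1 and 1547 in CSF1Ri+CD40 3. By group, their sums were 1033 to 1960 in Control, 631 to 930 in CSF1Ri, 389 to 3204 in CD40 and 707 to 1547 in CSF1Ri+CD40. Fibroblast markers (8 of 8) summed to 4187 to 4623 in Control, 2384 to 2388 in CSF1Ri, 1546 to 6316 in CD40 and 2726 to 4926 in CSF1Ri+CD40, and CD40 1 was again highest. Thy1 alone had 1956 of the 2384 fibroblast counts in CSF1Ri 1 and 1452 of the 6316 in CD40 1. Whether the Thy1 RNA came from fibroblasts or T cells was not tested. The part of macrophages and fibroblasts in the result was not tested either. Melanocyte markers (8 of 8) summed to 338 to 645 in Control, 479 to 547 in CSF1Ri, 383 to 1177 in CD40 and 275 to 630 in CSF1Ri+CD40, with 981 in CD40 1 and 275 in CSF1Ri+CD40 1.

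Granulocytes related to mast cells left little RNA. Eosinophil markers (8 of 8 in the table) summed to 70 to 87 in Control, 146 to 155 in CSF1Ri, 42 to 156 in CD40 and 96 to 114 in CSF1Ri+CD40. Their defining genes were absent or nearly so: Prg2 was at 0 in every library, Epx had at most 1 count and Siglecf at most 6. Neutrophil markers (10 of 10) summed to 145 to 215 in Control, 165 to 171 in CSF1Ri, 71 to 289 in CD40 and 60 to 89 in CSF1Ri+CD40, with Elane, Mpo and Camp at 0 in every library. Megakaryocyte and erythroid markers (10 of 10), among them the hemoglobin genes, were highest in Control, where Gata1 was at 0 or 1: they summed to 3003 to 15967 in Control, 1362 to 2810 in CSF1Ri, 979 to 1212 in CD40 and 34 to 680 in CSF1Ri+CD40. Keratinocyte markers (8 of 8) summed to 852 to 1799, 291 to 397, 311 to 1022 and 409 to 2052 in the same order of groups. Type 2 innate lymphoid markers (10 of 10) summed to 12595 to 15436, 12208 to 16883, 9867 to 16733 and 10509 to 12338, and dendritic cell markers (8 of 8) summed to 2745 to 4558, 3100 to 3642, 2576 to 3978 and 2386 to 2555. Endothelial markers (8 of 8) summed to 902 to 932, 728 to 825, 499 to 969 and 702 to 1050, and B cell markers (6 of 6) summed to 368 to 835, 318 to 681, 365 to 561 and 309 to 397. T cell markers (15 of 15) summed to 117033 to 145060, 162474 to 177819, 121426 to 192818 and 161429 to 171692. All 15 were higher in CSF1Ri than in Control (median log2 fold change 0.39), and 14 of 15 were higher in CSF1Ri+CD40 than in Control (median 0.36). In CD40 over Control all 15 were higher (median 0.33), and in CSF1Ri+CD40 over CSF1Ri 7 were higher and 8 lower (median -0.04). None of the 15 was called (limma). Single genes held much of some sums. Ccr7 had 1789 to 4063 normalized counts among the dendritic cell markers, and Pecam1 had 497 to 1050 among the endothelial markers. Among the type 2 innate lymphoid markers Il7r had 3319 to 9570. Whether that RNA came from the named cells or from T cells was not tested, so these sums do not measure those cells. The part of any of the cells named here in the levels of the 10 genes was not tested.

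The 3 libraries with Y-linked transcripts were Control 1, CD40 2 and CD40 3, which lie in the 2 groups without the inhibitor. CD40 1, the library with the most protease RNA, had none. In the 7 libraries without them the median of the 10 genes was 3.90 in CD40 over Control, where the CD40 group was then CD40 1 alone, and 1.99 in CSF1Ri+CD40 over CSF1Ri. In the latter no gene was called. Malat1, a nuclear long noncoding RNA, ran from 14056 in Control 2 to 95260 in CD40 3, with 25034 in CD40 1 and 20146 in CSF1Ri+CD40 1. The part of these in the levels of the 10 genes was not tested.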

How the data were processed

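Libraries were made without strand marking from 50 ng of total RNA and sequenced as 75-base pairs, per the labels' protocols. The authors aligned reads with STAR to GRCm38 (mm10), counted them with HTSeq and used DESeq2, per the labels' protocols and the submitters' processing notes; versions are not given in the sources used here. The deposited values are whole numbers per gene symbol, treated here as a score: counts that the authors had normalized between libraries and rounded. Size factors computed again from them were 1.03 in all 10 libraries, so a count model was not used. Raw depth is unknown, and the totals are of normalized counts.

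The 10 genes and all gene lists were chosen with earlier results of these data known. A gene entered the tests if 2 or more libraries reached a value of 10 for it (15716 genes of 48825, all 10 members among them). limma 3.58.1 in R 4.3.3 fitted log2(value + 1) by group over all 10 libraries with a variance trend, with 6 residual and 5.48 prior degrees of freedom. A fold change on this scale understates the change of low genes. Calls were at a two-sided Benjamini-Hochberg adjusted p under 0.05. The fit was first tested on simulated data. Correlations used two-sided permutation tests (100000 resamples, exact within groups) adjusted over 45 pairs, with numpy 2.4.6 and pandas 2.3.3. No source says that the pools of a group came from separate mice, so a p-value measures only the spread between these libraries. Same-numbered libraries did not deviate together (correlations of departures from group means from -0.27 to 0.18), so the numbers were not used as pairs. Whether those libraries shared a batch or a source of animals was not tested.

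Named genes were all 10 members, up to 4 of the most abundant tested genes of each other list, and the 12 genes most alike in profile; genes named as being at or near 0 and those in the closing observations were picked after their values were seen. No gene on the opposite strand overlapped any of the 10 in GENCODE vM21. Alternatives were other pseudocounts, filters, scalings and spread estimates, a replicate block, each library left out and, added after seeing the data, subsets of libraries. A further allele of the strain and the value of 1 marker gene are not reported here.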

Additional observations from a re-analysis of the deposited data

Results flagged for a closer look

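Ms4a2, the beta chain of the IgE receptor, drew attention because the inhibitor's difference had opposite signs without and with the antibody. Both CSF1Ri libraries (2 and 0 normalized counts) lay below the Control mean of 30.0, and both CSF1Ri+CD40 libraries (210 and 95) lay above the CD40 mean of 64.3. The difference between these effects was 5.95 ± 1.62 on the log2 scale (limma, unadjusted p 0.0034, adjusted p 0.991), so it did not pass the test. CD40 1, at 144, was above CSF1Ri+CD40 3. In the 7 libraries without Y-linked transcripts, where CD40 1 was the CD40 group, Ms4a2 in CSF1Ri+CD40 over CD40 was at -0.03, so the opposite signs did not hold there.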

How the results depend on the processing

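None of the 10 genes was called in any of the 5 comparisons other than CD40 over Control, whose values chose the genes, under any of the alternatives, with a smallest adjusted p from 0.303 to 1 in CSF1Ri+CD40 over CSF1Ri. The counts below are of calls over all genes. In CD40 over Control the count of 1 became 0 with no filter, with only the groups compared and in the 7 libraries without Y-linked transcripts, and 2 with no variance trend. In CSF1Ri over Control the count of 1 became 0 with a pseudocount of 10, no filter, a filter of 50, quantile normalization, only the groups compared and in those 7 libraries, and 6 with no variance trend. In CSF1Ri+CD40 over Control the count of 0 became 1 with a pseudocount of 10, 1 with a filter of 50 and 13 with no variance trend. With no variance trend it became 15 in CSF1Ri+CD40 over CSF1Ri, 9 in CSF1Ri+CD40 over CD40 and 6 in the interaction. With 1 library left out the counts ran, in the order above, from 0 to 3, 0 to 0, 0 to 36, 0 to 6, 0 to 20 and 0 to 2. The cause was not tested.

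With the replicate block (the libraries' numbers, in the 8 libraries outside CSF1Ri) CD40 over Control had 0 calls. The numbers were not taken to pair the samples, and whether same-numbered libraries shared a source was not tested. No paired fit was possible for comparisons with CSF1Ri. There, 1 library has no number in its title and the other has a number found in no other group.

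The check of single genes took the fold changes printed in the comparisons above, not every gene in every comparison. It left out small ones such as Mcpt8 (-0.201) and Tpsab1 (-0.205) in CSF1Ri+CD40 over CD40. Of its 350 log2 fold changes with a library left out, 10 changed sign or became 0. The ranges were -0.50 to 1.30 for Ms4a2 and -0.10 to 0.80 for Kit in CD40 over Control, and -1.48 to 0.21 for Cma1 in CSF1Ri over Control. In CSF1Ri+CD40 over CSF1Ri they were -0.02 to 2.62 for Tpsb2, -0.36 to 1.93 for Tpsab1, -1.51 to 7.05 for Mcpt8 and 0.00 to 5.49 for Gata2, and in CSF1Ri+CD40 over CD40 -1.56 to 1.43 for Cpa3. The median over the 10 genes ran from -0.97 to 1.42 in CSF1Ri over Control and from -1.78 to 0.53 in the interaction. Of 351 values of the same printed fold changes under other settings 2 changed sign, both in the 7 libraries: Gata2 in CD40 over Control (-0.79) and Ms4a2 in CSF1Ri+CD40 over CD40 (-0.03). The count of genes with groups apart ran from 5 to 10 in CSF1Ri+CD40 over Control and from 4 to 9 over CSF1Ri with a library left out, where the share of all genes ran from 10.7% to 26.0% and from 16.7% to 37.5%. The highest shares, 26.0% and 37.5%, came without CSF1Ri+CD40 1, where the counts were at their lowest, 5 and 4.

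The 21 correlated pairs became 2 without CD40 1 and CSF1Ri+CD40 1, and ran from 12 to 24 with 1 library left out. Without those libraries the r of Cpa3 and Ms4a2 was -0.07. Within groups the r of Cpa3 and Gata2 was -0.12 with a pseudocount of 10 and -0.04 with quantile normalization, and it ran from -0.33 to 0.68 with 1 library left out. Values of a few counts, as of Gata2 and Ms4a2, are limited by depth, which the files do not give.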

Other observations

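Some further genes of mast cells and basophils, picked here after their values were seen, stood closer to the 10 in profile than others did. Hdc, which makes histamine, had 181, 52 and 85 normalized counts in Control 1, 2 and 3, 238 and 85 in CSF1Ri 1 and 6, 228, 350 and 256 in CD40 1, 2 and 3, and 274 and 206 in CSF1Ri+CD40 1 and 3. Its r with the mean log2 profile of the 10 genes was 0.73 over the 10 libraries, and Control 2 was lowest, as for Fcer1a. Cd200r3, a receptor of mast cells and basophils, had 25, 0 and 124 in Control, 90 and 55 in CSF1Ri, 226, 113 and 173 in CD40, and 111 and 148 in CSF1Ri+CD40, with an r of 0.71. Mrgprb1, a receptor of the mast cell family, had 297 in CD40 1 and 0 to 124 in the other libraries, with an r of 0.58. Among 12404 genes ranked by this r, Hdc was at place 82 and Cd200r3 at place 104. The r was 0.39 for Tph1, 0.14 for Slc18a2, 0.09 for Adora3, -0.17 for Hpgds and Ndst2, -0.18 for Rab27b, -0.33 for Ptgdr2 and -0.41 for Il4. Such likeness was not particular to genes of mast cells and basophils. Zap70 of T cells had an r of 0.84 (place 16), and the other T cell markers had at most 0.48. Of the dendritic cell markers, Flt3 had 0.73 (place 83) and Xcr1 0.63, while Zbtb46 had -0.33 and Ccr7 -0.42.

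Rgs13, a regulator of G-protein signaling in mast cells, was found in CD40 1 (34 normalized counts) and CSF1Ri+CD40 1 (30) and was at 0 in the other 8 libraries. Adora3 and Tph1, also made by mast cells, were highest in CD40 1, at 110 and 168. In CSF1Ri+CD40 1 they were at 55 and 0. Other genes of that list were not highest in CD40 1. Slc18a2 and Hpgds were both at 40 there, against 167 and 203 in CD40 3. Mrgprx2 was at 8 there, against 51 in CSF1Ri+CD40 1. The mucosal mast cell proteases Mcpt1 and Mcpt2 were at 0 in most libraries, with at most 48 and 40 counts, both in CSF1Ri 1. The basophil protease Prss34 was at 103 in CSF1Ri 1, 18 in CD40 2 and 0 in the other 8, and CSF1Ri 1 was also the library with the most Mcpt8.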
